A study of Mus musculus with 18 samples.

Results

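The comparison described here is the change in the effect of doxycycline (DOX) between day 2 and day 3 of differentiation of a mouse embryonic stem cell line. It was chosen as a difference of differences: the log2 ratio of a DOX sample to its control on each array, set between the 3 day 3 arrays and the 3 day 2 arrays. These arrays carry 12 of the 18 samples and make up 6 of the 9 arrays. A gene is described only where its ratio itself changed between the days, and a dye effect that is the same for a probe on every array cancels in that difference.

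The cells were mouse embryonic stem cells of the line i-Mixl1, whose name refers to the homeobox gene Mixl1, left to differentiate as embryoid bodies. The comparison draws on 4 groups of 3 biological replicates. They are day 2 with DOX, day 2 without DOX, day 3 with DOX and day 3 without DOX, where DOX was given at 0.1 ug/ml from 1 day after plating. RNA was amplified in 1 round, and each array, spotted with mouse cDNA clones, paired a DOX sample with the control that had its day and replicate number. The sources used here do not give the promoter that drives the transgene, the number of clones behind the line or whether the replicates were run on separate occasions. Mixl1 was not on the array by symbol, so the induced gene could not be checked.

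Embryoid bodies are aggregates in which stem cells leave the pluripotent state and form cells like those of the early embryo. Mixl1 is a homeobox transcription factor of the primitive streak, the region where mesoderm and endoderm arise, and in inducible lines DOX switches a transgene on. Wnt, BMP and Nodal ligands pattern the streak, and cells that leave it commonly lose epithelial junction proteins and switch from E-cadherin to N-cadherin.

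All ratios below are the red over the green channel, because the dye that carried the DOX samples is not settled. The deposited value table pairs DOX with red, whereas the labels give DOX samples Cy3, which is read in green. By the value table a ratio that rose rose in favour of DOX, and by the label dyes every sign is turned. The size of a change and its test do not depend on this.

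Of the 17327 spots 15247 were gene probes, and 15246 could be tested. Median intensity per array was 209 to 466 in red and 266 to 491 in green. Of the gene probes, 54.3 to 63.2% in red and 62.0 to 67.4% in green reached the signal-to-noise ratio of 1.4 taken here as well above background. Across probes, the log2 ratios of arrays within a day had correlations of 0.53 to 0.56 at day 2 and 0.52 to 0.66 at day 3, and arrays of different days 0.34 to 0.48, where probes are not independent. The median absolute deviation of the ratios was 0.14 to 0.22 on day 2 arrays and 0.24 to 0.28 on day 3 arrays. Pou5f1, the core pluripotency factor, was well above background in both channels on all 6 arrays. With 3 arrays a day, the number of arrays limits the precision of every value, and each day was hybridised on arrays of its own, so that day and hybridisation cannot be told apart. In bulk RNA, fewer cells of a type and less RNA per cell cannot be told apart either.

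The red over green ratio changed between the days for 489 of 15246 probes, 3.21% of those tested, at an adjusted p of 0.05 in limma. It rose for 197 probes (1.29%) and fell for 292 (1.92%). Taking each gene by its brightest probe, 104 of 5622 genes rose (1.85%) and 155 fell (2.76%), together 259 (4.61%), and the median change over all genes was -0.00053 on the log2 scale. More than 2-fold changes were found for 15 genes that rose and 10 that fell. At an unadjusted p under 0.05 there were 2533 probes. Of the 489, 86 had a channel not well above background on all 3 arrays of a day, and 168 carried no gene symbol. Leaving out any 1 day 2 array lowered the count of 489 to between 257 and 260, leaving out replicate 2 of day 3 lowered it to 238, and leaving out replicate 2 on all days lowered it to 81.

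Most changed genes had a ratio that passed the test against 0 at day 3 only. Of the genes that rose, 89 passed it at day 3 and not at day 2, and of those that fell 127 did. A ratio that did not pass at day 2 can still lie off 0, as for Dclk2 at 0.37, 0.23 and 0.35. At day 2 only, 4 of the rises and 6 of the falls passed. Across all genes the ratio passed as higher than 0 for 95 (1.69%) and lower for 104 (1.85%) at day 2. At day 3 it passed as higher for 599 (10.7%) and lower for 698 (12.4%). Within a day dye and treatment cannot be told apart. A ratio set against 0, here and below, can therefore hold a dye effect of the probe, which cancels only in the difference between the days. Ratios that passed on both days and moved further from 0 numbered 8 that rose and 9 that fell. Another 5, all falls, passed on both days and were smaller at day 3: Hebp1, Parp8, Arl4a, Ccnd2 and Podxl. The 3 arrays of day 3 did not overlap the 3 arrays of day 2 for 485 of the 489 probes, against 22.6% of all probes. Those probes were called on these same values, so their separation is not separate evidence for the calls.

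**Figure D1:**
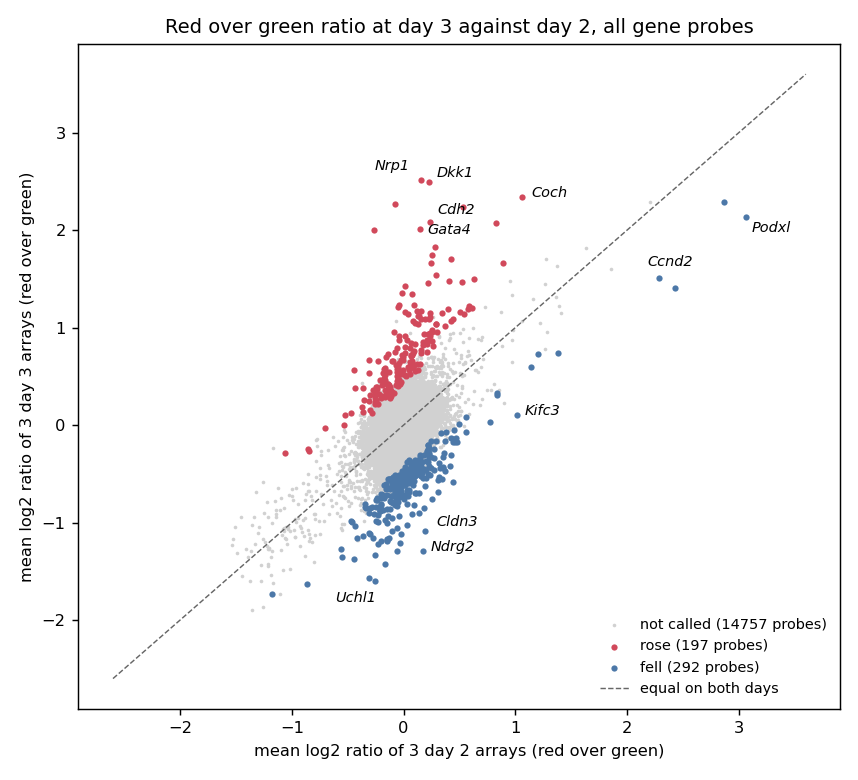
Mean log2 ratio (red over green) of the 3 day 3 arrays on the vertical axis against that of the 3 day 2 arrays on the horizontal axis, for every gene probe; red points are the 197 probes that rose, blue points the 292 that fell, grey points the rest, and the dashed line marks equal ratios. Most coloured points lie near 0 on the day 2 axis, whereas Podxl and Ccnd2 lie far to the right at both days and below the line.

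Genes are called above background here where each channel reached that limit on at least 1 array of each day. The largest rise among them was that of Dkk1, a secreted inhibitor of Wnt signalling that Wnt itself induces. Its log2 ratio was 0.27, 0.21 and 0.20 on the day 2 arrays and 2.40, 2.32 and 2.77 on the day 3 arrays. The days did not overlap, and every day 3 array stood far above every day 2 array. The change was 2.27 ± 0.15 (SE, 3 arrays a day), 4.83-fold, with an adjusted p of 2.16e-06. Both channels were brighter at day 3, the red by 3.00 and the green by 0.73 on the log2 scale. At day 2 Dkk1 reached the background limit on 2 arrays in each channel, with mean log2 levels of 7.48 in red and 7.25 in green. The size of its fold therefore rests on day 2 values near background.

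Gata4, a zinc finger transcription factor of endoderm and heart, had log2 ratios of 0.15, 0.04 and 0.25 at day 2 and of 1.55, 2.34 and 2.14 at day 3. The days did not overlap. Its change was 1.87 ± 0.16 (3.64-fold, adjusted p = 2.21e-05), with the red channel 2.13 brighter at day 3 and the green 0.27 brighter. At day 2 it reached the background limit on 1 array in red and 2 in green, so the size of its fold rests on day 2 values near background. Cdh2, which encodes N-cadherin, the cadherin of mesodermal and neural cells, had ratios of 0.33, 0.24 and 0.13 at day 2 and 1.79, 2.26 and 2.21 at day 3. It rose by 1.85 ± 0.15 (3.62-fold, adjusted p = 8.64e-06), again without overlap.

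Igf2, a growth factor expressed from the paternal allele, had ratios of 0.28, 0.23 and 0.27 at day 2 and 1.69, 1.92 and 1.61 at day 3, a rise of 1.48 ± 0.14 (2.80-fold, adjusted p = 3.71e-05). Coch, which encodes the extracellular protein cochlin, was off balance on both days. Its ratio was 1.34, 0.89 and 0.96 at day 2 and 2.12, 2.39 and 2.53 at day 3, a further rise of 1.28 ± 0.14 (adjusted p = 0.000105). Gata3, a transcription factor of trophoblast and of several mesodermal and ectodermal tissues, went from -0.07, 0.07 and 0.23 to 0.91, 1.74 and 1.4, a rise of 1.27 ± 0.17 (adjusted p = 0.000609). At day 2 Gata3 reached the background limit on 1 array in each channel, so its fold too rests on values near background. For none of these 3 genes did the days overlap.

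The other 9 of the 15 largest rises ran from 0.90 to 1.25. They were Phlda2, an imprinted gene that restrains placental growth, Tiam2, an exchange factor for Rac, Rab38, a small GTPase, Gas1, a membrane protein that binds hedgehog ligands, Gimap3, a GTPase, Greb1, Id4, an inhibitor of basic helix-loop-helix factors, Tcea2, an elongation factor, and Sfmbt2, an imprinted Polycomb-group gene. Rab38 was below 0 on all day 2 arrays, at -0.08, -0.10 and -0.07, and above 0 on all day 3 arrays, at 0.69, 1.03 and 1.16. Gimap3 was less certain, since 2 further probes of the gene above background changed by -0.08 and -0.14 and were not called.

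**Figure D2:**
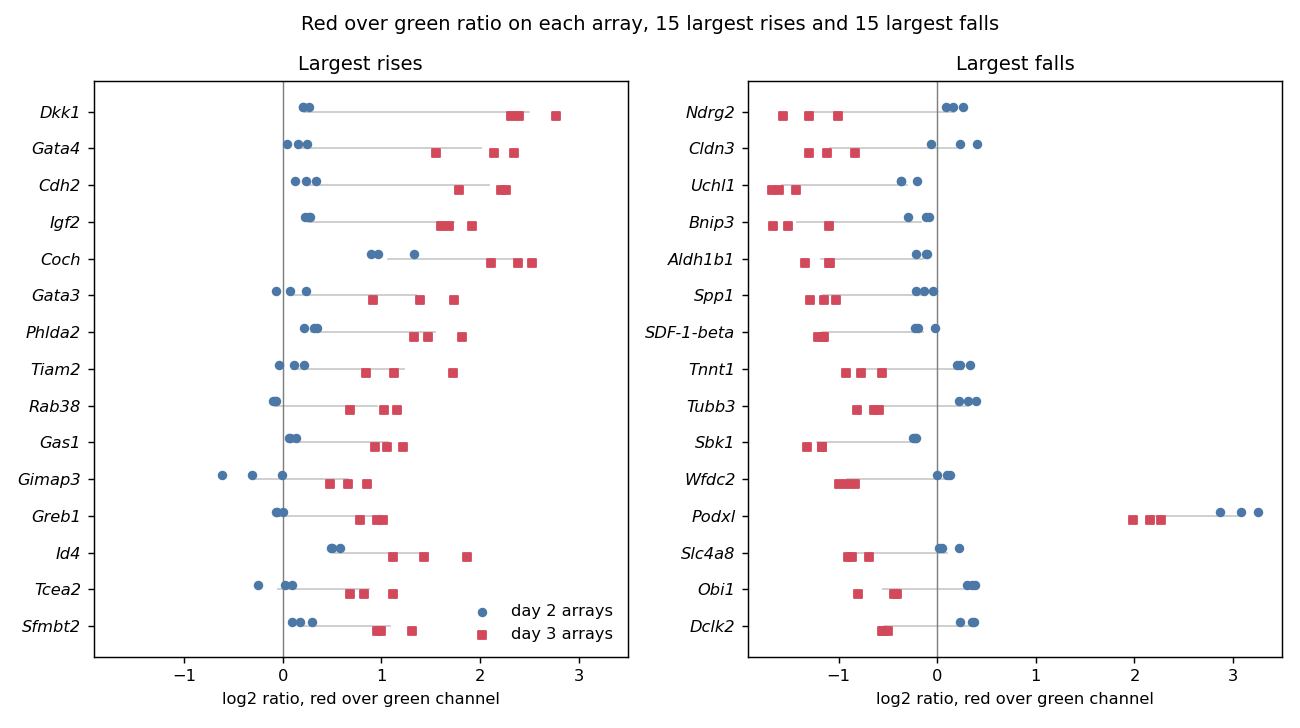
Log2 ratio (red over green) on each of the 3 day 2 arrays (blue circles) and 3 day 3 arrays (red squares) for the 15 largest rises and the 15 largest falls among genes above background on both days; the grey lines join the means. The 2 sets of points are apart for all 30 genes because the rule that chose them required it. Podxl is the only one of the falls whose day 3 points lie to the right of 0.

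Among the genes not well above background on every array of a day, the same test was passed by several vascular and mesodermal genes. For these a ratio is only a bound, "at least N-fold", which sets the mean of the bright channel against the higher of the dim channel's own mean and the lowest signal among probes above background. Nrp1, a co-receptor for vascular endothelial growth factor and semaphorins, was dim in both channels at day 2 and in green at day 3. Its log2 ratios at day 3 were 2.01, 3.34 and 2.20, and the bound on their mean was at least 5.72-fold. The change between the days had an adjusted p of 8.31e-05. Hand1, a factor of lateral mesoderm and trophoblast, was dim in the same way. Its log2 ratios at day 3 were 0.64, 1.35 and 1.54, with a bound on their mean of at least 2.26-fold (adjusted p of the change 0.00998). For both genes the bound was the mean ratio itself, so single arrays can lie below it. Ctla2a, which encodes a protease inhibitor, was dim at day 2 and measured in both channels at day 3. Its ratio at day 3 was 1.94, 2.32 and 2.56 on the log2 scale (adjusted p of the change 5.54e-05). A second Ctla2a probe changed by 2.26. Pcdh7 and Pcdh18, both protocadherins, rose as well (adjusted p = 0.00116 and 0.0106).

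The largest fall was that of Ndrg2, a cytoplasmic protein of the NDRG family linked to differentiation. Its log2 ratio was 0.26, 0.09 and 0.16 at day 2 and -1.30, -1.56 and -1.01 at day 3. It lay above 0 on every day 2 array and below 0 on every day 3 array. The ratio fell by 1.46 ± 0.14 (2.75-fold, adjusted p = 3.71e-05). The green channel was 1.57 brighter at day 3 and the red only 0.11 brighter.

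Cldn3, a claudin of epithelial tight junctions, went from 0.23, -0.06 and 0.40 to -0.83, -1.12 and -1.30, a fall of 1.27 ± 0.15 (2.42-fold, adjusted p = 0.000188). Uchl1, a neuronal ubiquitin hydrolase, was below 0 on both days, at -0.36, -0.37 and -0.20 and then at -1.44, -1.60 and -1.67. It fell by 1.26 ± 0.12 (adjusted p = 3.71e-05), and its second probe fell too, with a change of -1.08. The days did not overlap for either gene, and the channels differed: for Cldn3 green was 1.03 brighter at day 3, and for Uchl1 red was dimmer, with a change of -1.42.

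A pair of secreted factors was among the largest falls. Spp1, which encodes osteopontin, went from -0.22, -0.04 and -0.13 to -1.03, -1.15 and -1.29, a fall of 1.03 ± 0.12 (adjusted p = 0.000167). The probe named SDF-1-beta in the array table, after a chemokine that guides migrating cells, fell by 1.02 ± 0.12 (adjusted p = 0.000113), from -0.03, -0.19 and -0.23 to -1.21, -1.16 and -1.15. The days did not overlap for either. The other 10 of the 15 largest falls included Aldh1b1, a mitochondrial aldehyde dehydrogenase, Tnnt1, the slow skeletal troponin T, Tubb3, the neuronal tubulin, Wfdc2, a secreted protease inhibitor of epithelia, Slc4a8, a bicarbonate transporter, and the kinase genes Sbk1 and Dclk2. Obi1 fell by 0.89, but its 7 other probes, dim on day 2, were not called.

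Podxl, an anti-adhesive sialomucin of epithelial and vascular surfaces, had the highest ratio of the named genes at day 2, at 3.25, 3.08 and 2.86. At day 3 it was 2.16, 1.99 and 2.26, so the ratio remained above 0 while it fell by 0.93 ± 0.13 (adjusted p = 0.000735). The red channel was 0.04 brighter at day 3 and the green 0.97 brighter. A further Podxl probe fell by 0.58, and the remaining 2 were not called. Ccnd2, a D-type cyclin, also fell from a high ratio, from 2.43, 1.95 and 2.48 to 1.48, 1.83 and 1.22 (a fall of 0.77 ± 0.18, adjusted p = 0.024). Its call was lost without replicate 1 or replicate 3 of either day, and the mean of its 3 probes changed by -0.33 and did not pass (adjusted p = 0.138).

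**Figure D3:**
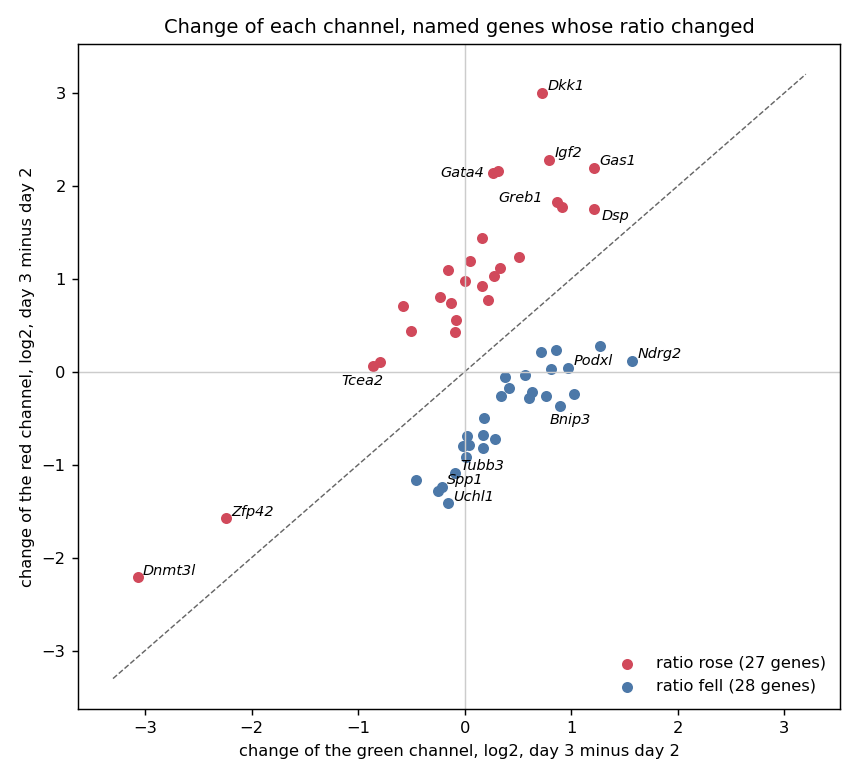
Change of the red channel (vertical axis) against change of the green channel (horizontal axis) from day 2 to day 3, on the log2 scale, for the named genes above background whose ratio rose (red) or fell (blue); the dashed line marks equal changes. Dkk1 is far up on the red axis, Ndrg2 far out on the green axis with little change in red, and Dnmt3l and Zfp42 lie at the lower left because both of their channels were dimmer at day 3.

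A ratio can change through either channel, and both contributed. Among the 83 genes above background that rose, red was brighter at day 3 for 68 and green for 33, and the medians of the change were 0.47 in red and -0.13 in green. Among the 140 that fell, red was brighter for 29 and green for 102, with medians of -0.37 and 0.27. The genes were chosen by their ratio, so brighter red among rises and brighter green among falls are favoured by that choice. The same counts over all genes were not made. Single-channel values carry no test here.

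Several genes of mesoderm and of BMP signalling rose. The lists and their members were chosen with earlier results of these data known. Beside the list counts below, 1.85% of all genes rose and 2.76% fell. Of 5 measured genes of paraxial and presomitic mesoderm, 4 rose and none fell, with a median change of 0.86. Rspo3, a secreted amplifier of Wnt signalling, went from 0.72, 0.59 and 0.59 to 1.44, 1.36 and 1.69 (a rise of 0.86, adjusted p = 0.00138). Cited1, a transcriptional co-regulator, rose by 0.86 as well (adjusted p = 0.00727). The other risers, Mesp2, a factor of somite segmentation, and Pdgfra, a growth factor receptor of mesoderm, were in part dim: Mesp2 in red at day 2 and Pdgfra in both channels on both days, and the 5 other Mesp2 probes were not called.

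Of 8 measured BMP target genes, 5 rose and none fell, with a median of 0.76. These were Gata3, Hand1, Id4, Tbx3 and Bmp4, of which Hand1, Tbx3 and Bmp4 were dim in at least 1 channel of a day. Id4 went from 0.50, 0.49 and 0.59 to 1.86, 1.43 and 1.12 (a rise of 0.95 ± 0.16, adjusted p = 0.00292). Id2 and Id3, the more general BMP responders, changed by 0.29 and 0.20 and did not pass (adjusted p = 0.45 and 0.426). Of 5 cardiac and lateral mesoderm genes 3 rose, Gata4, Hand1 and Bmp4, with a median of 0.58. These lists share members, so their counts are not independent. With replicate 2 left out on all days, 1 paraxial, 2 BMP and 1 cardiac gene still rose, and leaving out replicate 2 of day 3 alone gave 4, 3 and 1.

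Of 6 measured Wnt targets, 5 had a change above 0, and the median was 0.55. Dkk1, Rspo3 and Apcdd1, a membrane inhibitor of Wnt signalling, rose and Ccnd2 fell. With the mean of all probes of a gene, 3 rose and 0 fell. Apcdd1 went from 0.47, 0.43 and 0.29 to 0.98, 1.43 and 1.15 (adjusted p = 0.00768), from a clone for which the array table records no PCR product. Of 4 Nodal and activin targets none passed, among them Cer1, a secreted antagonist of Nodal, with a change of -0.40 (adjusted p = 0.0803; it passed as a fall under 5 of 25 other settings, with an adjusted p of 0.0347 at the lowest), and Eomes, a T-box factor of the streak, with a change of -0.10 (adjusted p = 0.817). Eomes was off balance on both days, with ratios of 1.21, 0.81 and 0.90 at day 2 and 0.53, 1.15 and 0.96 at day 3, so that the days overlapped. T, the brachyury gene of the streak, was dim on both days and did not pass (adjusted p = 0.836).

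**Figure D4:**
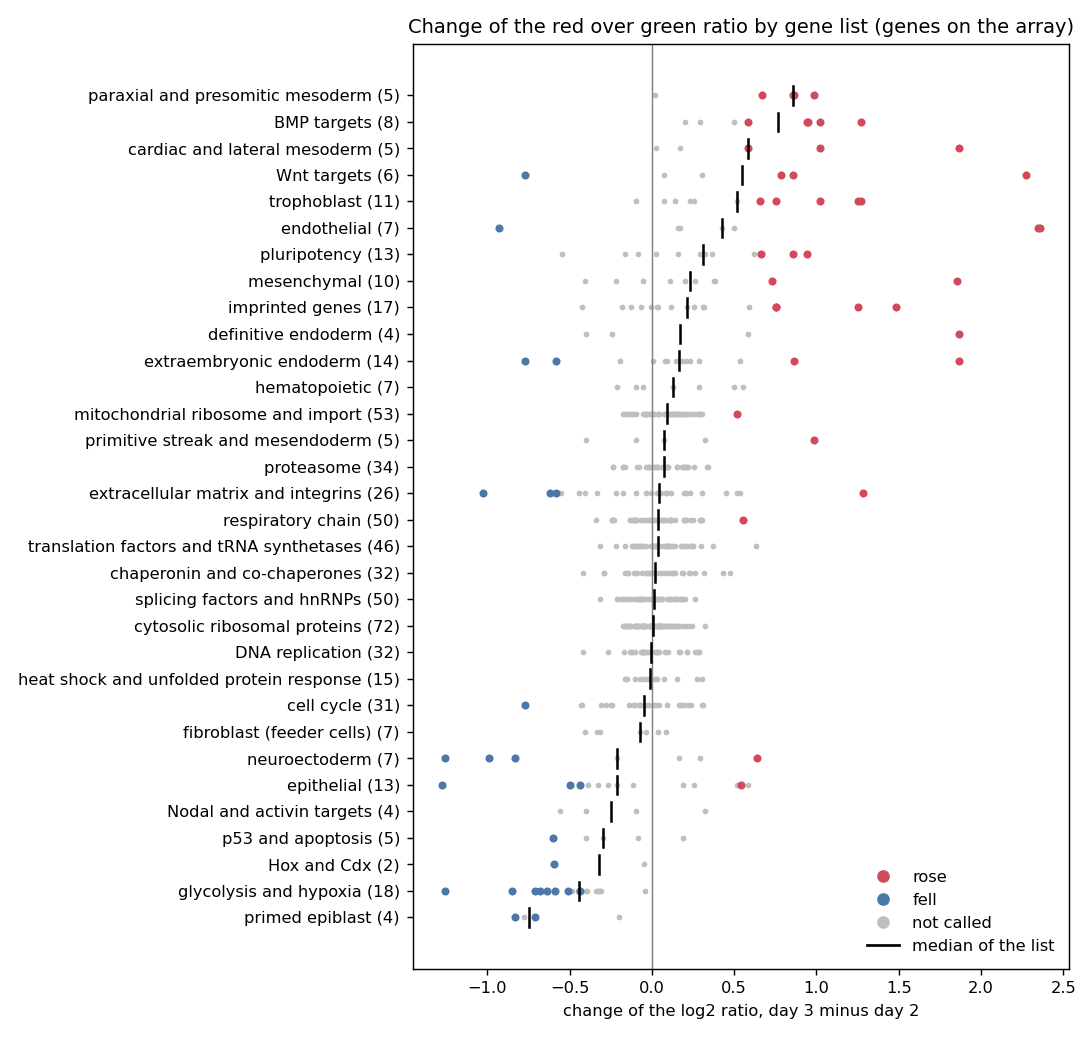
Change of the log2 ratio (day 3 minus day 2) of each measured gene, by gene list with the number of measured genes in brackets; red points rose, blue points fell, grey points did not pass, and black bars are the medians. The medians of paraxial mesoderm and BMP targets lie to the right of 0, that of glycolysis and hypoxia genes to the left, and the large lists of ribosomal, proteasome and splicing genes lie around 0.

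Trophoblast genes, which mark a lineage that embryonic stem cells seldom form, rose in 5 of 11 cases with a median of 0.52, and none fell. The risers were Gata3, Phlda2, Hand1, Peg10 and Tfap2c. Phlda2 went from 0.34, 0.21 and 0.31 to 1.82, 1.48 and 1.34 (a rise of 1.25 ± 0.13, adjusted p = 5.54e-05). The placental hormone gene Prl3d1 changed by 0.07 and Eomes by -0.10, and neither passed. Gata3 and Hand1 are also in the BMP list. With replicate 2 left out on all days, 2 of the 11 rose.

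Of 17 imprinted genes 4 rose and none fell, with a median of 0.21: Igf2, Phlda2, Peg10 and Usp29. Peg10, a retrotransposon-derived gene of the placenta, went from 0.33, 0.18 and 0.35 to 1.26, 0.98 and 0.89 (adjusted p = 0.00971). H19, the non-coding neighbour of Igf2 that is expressed from the other allele, was measured by 9 probes that disagreed. Its brightest probe changed by -0.13 and did not pass, whereas 5 others rose by 0.48 to 0.73, with adjusted p of at most 0.0475. Mest did not change beyond its error (-0.0043, adjusted p = 0.989), although its log2 ratio was 0.98 on both days.

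Epithelial genes moved both ways. Of 13 measured, Cldn3, Cldn6 and Epcam fell and Dsp rose, and the median was -0.21. Epcam, an epithelial adhesion molecule, went from -0.14, -0.10 and -0.24 to -0.69, -0.67 and -0.44 (a fall of 0.44 ± 0.11, adjusted p = 0.0472), and Cldn6, another claudin, fell by 0.50 (adjusted p = 0.0403). Dsp, which encodes desmoplakin of the desmosome, went from 0.16, 0.21 and 0.25 to 0.69, 0.94 and 0.62 (adjusted p = 0.0241). Cdh1, which encodes E-cadherin, was dim on both days and did not pass (adjusted p = 0.0713), although it did under 2 other settings. Without any 1 of the day 2 arrays, or without replicate 2 of day 3, 1 gene of the list fell and none rose, and without replicate 1 of day 3 there was 1 of each. Of 10 mesenchymal genes, Cdh2 and Vim, the intermediate filament vimentin, rose and none fell, the Vim clone having no recorded PCR product.

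Changes were also found among genes of the pluripotent state. Of 13 pluripotency genes, Tbx3, Dnmt3l and Zfp42 rose and none fell, with a median of 0.31. Dnmt3l, a cofactor of DNA methylation, had ratios of -0.01, -0.07 and -0.10 at day 2 and 0.54, 1.13 and 0.71 at day 3 (a rise of 0.86 ± 0.14, adjusted p = 0.00207). Both channels were dimmer at day 3, the red with a change of -2.21 and the green with a change of -3.07. Zfp42, the naive-state marker also called Rex1, showed the same picture, with changes of -1.58 in red and -2.24 in green and a rise of the ratio by 0.66 ± 0.11 (adjusted p = 0.00262). Their ratio thus rose while the signal of the gene was lower on day 3 in both channels. Pou5f1 went from -0.25, -0.18 and -0.20 to -0.50, -0.54 and -1.23 and did not pass (adjusted p = 0.14).

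Of 4 genes of the primed epiblast, Otx2 and Sall2 fell, and the median was -0.75. Otx2, a homeobox gene of epiblast and anterior neural tissue, went from 0.11, 0.24 and 0.05 to -0.55, -0.58 and -0.95 (a fall of 0.83 ± 0.20, adjusted p = 0.0294). Sall2, a zinc finger gene, fell by 0.71 (adjusted p = 0.0144). Neither call held without replicate 1 or without replicate 3 of day 2, when none of the 4 genes passed. The call of Otx2 was also lost without replicate 2 of day 2, and without replicate 2 or replicate 3 of day 3. In the neuroectoderm list Uchl1, Tubb3 and Otx2 fell, Irx3 rose, and the median of 7 genes was -0.21. Tubb3 went from 0.39, 0.32 and 0.22 to -0.64, -0.81 and -0.59, a fall of 0.99 ± 0.14 (adjusted p = 0.00076), with the sign turned on every array.

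Of 18 measured glycolysis and hypoxia genes, 8 fell, none rose and 10 did not pass, and all 18 changes were below 0, where 50.1% of all genes were. The median change was -0.44, from a median ratio of -0.07 at day 2 to -0.56 at day 3. The fallen genes were Bnip3, a mitophagy receptor induced by hypoxia, Slc2a1, the glucose transporter GLUT1, the phosphofructokinases Pfkm and Pfkl, Egln1, the oxygen-sensing prolyl hydroxylase of HIF, Adm, the vasodilator peptide adrenomedullin, whose probe was dim in red on both days, P4ha2, a collagen prolyl hydroxylase, and Ero1a, an oxidase of the endoplasmic reticulum. The last 4 are named beyond the rule for named genes, with their values seen. Aldoa and Pgam1, which changed by -0.49 and -0.45, did not pass (adjusted p = 0.0511 and 0.115).

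Bnip3 had ratios of -0.30, -0.09 and -0.11 at day 2 and -1.66, -1.51 and -1.10 at day 3, a fall of 1.26 ± 0.14 (2.39-fold, adjusted p = 0.000104). Its clone has no recorded PCR product. Slc2a1 went from -0.22, -0.17 and -0.04 to -0.89, -0.99 and -1.13, a fall of 0.85 ± 0.12 (1.81-fold, adjusted p = 0.000735). The days did not overlap for either, and for both green was brighter at day 3, by 0.89 and 0.63, with red lower at changes of -0.37 and -0.22. Pfkm fell by 0.71 (adjusted p = 0.00274) and Pfkl by 0.68 (adjusted p = 0.00826).

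All 18 changes were below 0 with any 1 array left out, except that 17 were without replicate 1 of day 2 or replicate 1 of day 3. The count of falls was 5 without any 1 of the day 2 arrays or without replicate 2 of day 3, 3 without replicate 2 on all days, and 4 when the ratios of all arrays were scaled to the same spread.

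The promoters of these genes were searched for the core of the hypoxia response element, because 8 of the list's members fell; the search was chosen after the values were seen. The windows run from 250 bases before to 50 after the start of transcription and were taken from RefSeq (GRCm38.p6). The letters were ACGTG or GCGTG on either strand, where CACGT and CACGC are the same sites on the other strand, and overlapping matches were counted each. Bnip3 and Slc2a1 are shown as the largest falls of the list, and Dkk1 and Ndrg2 as the largest rise and fall of the genes above background, with matches in capitals. Bnip3 is at chr7:138909457-138909756 (minus strand), Slc2a1 at chr4:119108495-119108794 (plus strand), Dkk1 at chr19:30549447-30549746 (minus strand) and Ndrg2 at chr14:51913955-51914254 (minus strand), each written 5′ to 3′ on the strand of its gene.
Bnip3: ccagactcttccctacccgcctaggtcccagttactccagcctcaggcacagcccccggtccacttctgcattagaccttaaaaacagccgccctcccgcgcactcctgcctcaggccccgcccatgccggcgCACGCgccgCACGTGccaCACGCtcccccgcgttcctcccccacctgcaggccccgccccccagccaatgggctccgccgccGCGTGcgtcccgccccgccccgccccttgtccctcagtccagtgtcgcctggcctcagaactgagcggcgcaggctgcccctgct
Slc2a1: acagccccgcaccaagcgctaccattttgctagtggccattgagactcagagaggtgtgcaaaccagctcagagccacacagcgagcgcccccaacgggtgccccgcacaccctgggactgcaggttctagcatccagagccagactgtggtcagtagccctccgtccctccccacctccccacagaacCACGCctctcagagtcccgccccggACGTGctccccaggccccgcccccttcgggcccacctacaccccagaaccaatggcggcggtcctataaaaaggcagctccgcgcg
Dkk1: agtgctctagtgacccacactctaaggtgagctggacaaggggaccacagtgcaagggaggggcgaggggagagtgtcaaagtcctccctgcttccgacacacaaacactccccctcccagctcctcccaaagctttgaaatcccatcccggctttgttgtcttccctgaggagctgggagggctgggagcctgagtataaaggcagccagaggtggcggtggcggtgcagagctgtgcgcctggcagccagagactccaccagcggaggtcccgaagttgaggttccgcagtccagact
Ndrg2: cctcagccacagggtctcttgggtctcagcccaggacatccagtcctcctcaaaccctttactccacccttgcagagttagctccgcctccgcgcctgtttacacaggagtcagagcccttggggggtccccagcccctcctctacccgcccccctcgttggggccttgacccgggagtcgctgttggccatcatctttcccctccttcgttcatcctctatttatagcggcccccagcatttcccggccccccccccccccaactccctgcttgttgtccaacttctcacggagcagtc

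The window of Bnip3 held 5 such matches and that of Slc2a1 2, whereas Dkk1 and Ndrg2 held 0. A match was found for 14 of the 17 list members with a promoter (82.4%) and for all 8 that fell, against 64.5% of 4082 genes on the array and 43.8% of 27025 genes. The most matches in the list, 7, were in the window of Ldha, which was not called. The median number of CG dinucleotides was 20 in the list and 23 in its fallen genes. It was 21 in the array genes and 7 in the 27025 genes. The homeobox core TAAT was searched as well, since Mixl1 is a homeobox factor, and this search too was chosen after the values were seen. It was present on either strand in 2 of 6 promoters of large changes (Dkk1, Igf2, Coch, Ndrg2, Cldn3 and Uchl1, a choice that passes over Gata4 and Cdh2) and in 6 of the 17 list promoters (35.3%), against 43.5% of array genes and 58.3% of all genes. An inverted pair of this core with 3 bases between its copies was in none of these promoters and in 0.196% of array genes. A match describes the letters only.

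Other lists gave few or no changes. Ribosomal proteins of the cytosol (72 genes), splicing factors (50), translation factors (46), the proteasome (34), DNA replication (32), chaperonin (32) and heat shock (15) had no call in either direction, with medians between -0.014 and 0.074. The respiratory chain had 1 riser among 50, Ndufaf4, an assembly factor of complex I (0.55, adjusted p = 0.0114), and the mitochondrial ribosome list had 1 among 53, Mrps6 (0.52, adjusted p = 0.0181). The cell cycle list had 1 fall among 31, which was Ccnd2. Of 26 matrix and integrin genes, Coch rose and Spp1, Itgb5 and Lamc1 fell.

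Markers of further cell types were examined the same way. None of 7 fibroblast genes, which would mark feeder cells, passed, with a median of -0.072, and 5 of the 7 were dim on a day. None of 7 hematopoietic genes passed (median 0.13), among them Gata1, dim in both channels at day 2 and in green at day 3. On the mean of the 3 day 3 arrays its red was at least 1.5-fold higher (adjusted p of the change 0.114). In extraembryonic endoderm Gata4 and Cited1 rose and Lrp2, an endocytic receptor of visceral endoderm, and Lamc1, a laminin chain, fell among 14 genes, with Ttr, a defining visceral endoderm gene, at 0.18 and not called. Of 7 endothelial genes Nrp1 and Ctla2a rose and Podxl fell, and 5 were dim. Their part in the changes was not tested.

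Genes also turned the sign of their ratio between the days. For 75 genes with a called change the ratio had 1 sign on all 3 day 2 arrays and the other on all 3 day 3 arrays. Called genes with passed-over names, such as LOC names, are not in that count. The share of all genes with this pattern was not counted. A called change on these same values favours such a turn, so the count is not a result about these genes. Some genes had a ratio called against 0 on both days with opposite signs. Among them Adamts10, a secreted metalloprotease, rose, and Irs1, an insulin receptor substrate, Pla2g7, a phospholipase, Fxyd6, LOC217166 and MGC11687 fell. These are named with their values seen. A second Pla2g7 probe was called in the opposite direction, with a rise of 0.55, so that this gene was not settled. Of the 49 further probes above background that belonged to 41 called genes, 38 had the same sign, 16 the same call and 1, that of Pla2g7, the opposite call.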

How the data were processed

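Arrays of spotted mouse cDNA clones were read in 2 channels. Per the file headers, each deposited day table gives a linear intensity for every spot and channel (median foreground less background), not normalized, with a signal-to-noise score per spot and channel and spot flags. The deposited value table, used as an alternative, holds intensity values that the authors filtered and scaled to a common mean within each day; it equalled a scaled channel of the day tables within 1e-06 for all 18 samples. Its column medians ran from 724 to 1257. The match gives its scale and centring. Its direction, which pairs DOX with red, is opposed by the label dyes. Of the columns with values per array, 27 were not used.

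The tools were R 4.3.3 and limma 3.58.1. Spots flagged at -75 or lower were removed. The normexp method (offset 50) corrected the background, and a loess curve on each array, in which control spots had no weight, normalized the ratios. The 9 log2 ratios of a probe were fitted with 1 mean for each day (6 residual degrees of freedom), and day 3 was set against day 2 with empirical Bayes moderation. Day 4 arrays added only to the estimate of spread. P-values were adjusted by Benjamini and Hochberg over all probes, two-sided, with a threshold of 0.05. A gene stands for its brightest probe. Single channels were scaled between arrays (Aquantile). Bounds from them are open to dye bias.

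Symbols were current for 4124 probes, updated through the RefSeq table (GRCm38.p6) for 3933 and kept for 897. Nrp, Ndr2 and Dlgh2 were read as Nrp1, Ndrg2 and Dlg2 from the clone descriptions after the named genes were seen. Named genes are the 15 largest changes each way above background with days that do not overlap, up to 4 changed members of each of 32 lists, a panel of 19 genes of which 13 were on the array, and up to 5 dim genes each way. Unnamed, RIKEN, EST, Gm and LOC names were passed over, and 1 gene is not reported here. Members and lists were chosen with earlier results of these data known. The ratios of arrays with the same replicate number did not deviate together (r of -0.15 to -0.06), and the main fit did not pair days by number. An effect common to both channels of an array cancels in its ratio, so this does not settle whether replicates were run together. The procedure was tested on simulated data, with an outcome not given here. The simulated noise was independent between arrays, so that test does not bear on effects shared by the arrays of a day. Alternatives covered background, normalization, filters, weights, spread and each array left out; list counts under each setting, the filter on both channels and the omission of print blocks were added after the data were seen.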

Additional observations from a re-analysis of the deposited data

Results flagged for a closer look

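The change of the ratio between the days is itself a test of a difference between groups, so each named gene that passed it is given here with its log2 change, day 3 minus day 2. All 69 were tested in limma over 15246 probes. Above background on both days, the ratio rose for Dkk1 (2.27), Gata4 (1.87), Cdh2 (1.85), Igf2 (1.48), Coch (1.28), Gata3 (1.27), Phlda2 (1.25), Tiam2 (1.14), Rab38 (1.04), Gas1 (0.98), Gimap3 (0.97), Greb1 (0.96), Id4 (0.95), Tcea2 (0.92), Sfmbt2 (0.90), Cited1 (0.86), Rspo3 (0.86), Dnmt3l (0.86), Apcdd1 (0.79), Peg10 (0.75), Usp29 (0.75), Vim (0.73), Zfp42 (0.66), Irx3 (0.64), Ndufaf4 (0.55), Dsp (0.54), Mrps6 (0.52). It fell for Ndrg2 (-1.46), Cldn3 (-1.27), Uchl1 (-1.26), Bnip3 (-1.26), Aldh1b1 (-1.03), Spp1 (-1.03), SDF-1-beta (-1.02), Tnnt1 (-1.01), Tubb3 (-0.99), Sbk1 (-0.99), Wfdc2 (-0.99), Podxl (-0.93), Slc4a8 (-0.92), Obi1 (-0.89), Dclk2 (-0.85), Slc2a1 (-0.85), Otx2 (-0.83), Ccnd2 (-0.77), Lrp2 (-0.77), Sall2 (-0.71), Pfkm (-0.71), Pfkl (-0.68), Itgb5 (-0.62), Mdm2 (-0.60), Hoxb1 (-0.59), Lamc1 (-0.59), Cldn6 (-0.50), Epcam (-0.44).

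Where a channel was not well above background on all 3 arrays of a day, the size of the change depends on the background and is given only to list the gene. Rises of this kind were those of Nrp1 (2.36), Ctla2a (2.35), Pcdh7 (1.27), Hand1 (1.02), Pcdh18 (1.01), Mesp2 (0.99), Tbx3 (0.94), Pdgfra (0.67), Bmp4 (0.58). Falls of this kind were those of Igfbp5 (-1.04), Kifc3 (-0.91), Gcm2 (-0.82), Acp7 (-0.79), Dlg2 (-0.71). The Pdgfra probe was dim in both channels on both days, and its change was -1.27 after plain subtraction of the background.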

How the results depend on the processing

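The count of 489 changed probes was within 1.5 times under most settings. It was 743 (449 falls) with loess within print blocks and 837 (356 rises, 481 falls) with array weights, and an offset of 16 left 186 falls. With single arrays or replicate numbers left out it ran from 81 to 538, with 41 to 230 rises and 40 to 308 falls. The cause of these shifts was not tested. Rises were 40.3% of the changed probes, 30% with the authors' scaled values and 50.6% without replicate 2. The replicate block gave 415 (167 rises, 248 falls) and moved 1 list count of 2 or more by over 1.5 times, epithelial falls from 3 to 1. Probes with both channels above background gave 656, and omission of print blocks 21, 24 and 25 gave 472, both chosen after seeing the data. The 32 lists held 51 called genes, and 53 with the mean of all probes of a gene.

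List counts under the other settings were also chosen after seeing the data. For counts of 2 or more, moves of over 1.5 times were as follows. Equal spread between arrays left 3 trophoblast, 2 imprinted and 1 Wnt target rises and 4 glycolysis, 1 epithelial, 1 primed epiblast and 1 extraembryonic endoderm falls. An offset of 16 left 3 BMP and 1 cardiac rises and 0 primed epiblast falls. Plain subtraction left 3 BMP, 2 trophoblast and 1 cardiac rises and 5 glycolysis, 1 epithelial, 1 extraembryonic endoderm and 0 primed epiblast falls. The authors' scaled values left 3 trophoblast, 2 paraxial, 1 BMP, 1 cardiac and 0 endothelial rises and 1 primed epiblast fall, over fewer genes tested. Settings that drop dim or flagged probes, which leave fewer genes to test, left 1 to 3 BMP and 0 to 1 cardiac rises, and in some 1 or 2 paraxial, 1 endothelial, 1 mesenchymal and 1 extraembryonic endoderm rises and 1 extraembryonic endoderm fall, while matrix falls rose to 5 in some, as with an intensity trend. Epithelial rises, 1 here, were 2 or 3 under those settings, array weights and the trend.

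Of the 69 named genes that passed, 28 did so under every setting in which they were tested, and 20 lost the call without some 1 array: Usp29, Irx3, Bmp4, Hand1, Pcdh18, Ndufaf4, Dsp, Mrps6, Epcam, Cldn6, Lamc1, Hoxb1, Mdm2, Itgb5, Sall2, Lrp2, Ccnd2, Gcm2, Otx2 and Kifc3. Changes reversed for Pdgfra (-1.27, plain subtraction), T (-0.027, without replicate 1 of day 3) and Eomes (0.021 without replicate 1 of day 2, 0.079 without replicate 1 of day 3, 0.20 without replicate 1); with arrays left out, T ran from -0.027 to 0.16 and Eomes from -0.31 to 0.20, and neither passed. Arrays numbering 3 a day, dim probes and clones without a recorded PCR product limit what the values show.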
